A study of Mus musculus with 12 samples.

Results

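Eph receptors and ephrins were followed in the striatum of mouse embryos at embryonic day 18.5. Wild-type embryos were set against embryos with a conditional knockout of the transcription factor Foxp1. The genes were taken from a list of 10 Eph and ephrin genes, each matched to its probe set through the gene identifier that names the row. Of these, 9 were matched and are described here, 5 receptors (Epha3, Epha4, Epha5, Epha7 and Ephb1) and 4 ephrins (Efna2, Efna5, Efnb2 and Efnb3). The remaining listed gene was not analysed here. The data set held 25428 probe sets, and the 12 other family members with a named probe set served as a surrounding group. The list did not use measured values as its rule, but it was drawn up with earlier results of these arrays known.

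The samples were 12 striatal preparations, 1 array each, 6 from wild-type (WT) embryos and 6 from embryos labelled Nestin-Cre (Foxp1-/-), called cKO here. All were on the C57BL/6J background, and tissue was dissected from both hemispheres. The labels call the samples biological replicates. Nestin-Cre is active in neural progenitors and so reaches neurons and macroglia alike. The labels do not say which exons were removed, or whether WT animals carried Cre. Fewer cells of a type and less RNA per cell cannot be told apart in such tissue samples.

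Eph receptors are receptor tyrosine kinases, and ephrins are their ligands on neighbouring cells. A-class receptors mostly bind ephrin-A proteins, which sit on the outer membrane face through a lipid anchor. B-class receptors mostly bind ephrin-B proteins, which span the membrane and signal back into the cell that carries them. Epha4 also binds ephrin-B ligands. Contact between the partners often repels growing axons. In the developing striatum the family is known for guiding striatal and thalamic axons and for helping to sort neurons into striosome and matrix compartments.

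All values are RMA log2 expression as deposited, and a change is the cKO mean minus the WT mean in log2 units. The WT arrays read 10.89 to 11.39 for Foxp1 and the cKO arrays 10.14 to 10.36, so the labels and the targeted gene matched on every array. The Foxp1 change was -0.91, or 1.88-fold lower, and its signal on the cKO arrays stayed well above the median of all values. Of 16 measured markers of striatal projection neurons, none had a mean at or below the median of all values (5.71). Their mean level was 9.21 to 9.45 on WT arrays and 9.09 to 9.26 on cKO arrays, a change of -0.17 in the list mean, and 2 of the 16 were lower in cKO. By the unadjusted p (under 0.05), 7 of the 16 were lower and 3 higher. Over all probe sets that p marked 5.67% as lower and 5.06% as higher, the background for each such count in the lists that follow. The falls of Epha7 and Ephb1 go the same way as the striatal list mean, and the part of this shift in them was not tested. Correlations between arrays were 0.992 to 0.998. WT replicates 3 and 6 had the lowest mean correlation with the other arrays of their group (0.995 each), and the sorted values of cKO replicate 1 differed from the median of those of the other arrays by at most 0.00187 log2 units.

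Of the 9 genes, 2 were lower in cKO, the receptors Epha7 and Ephb1, and 1 was higher, the ligand Efnb2. The threshold was a limma adjusted p of 0.05 over all probe sets, which 0.429% of probe sets passed as lower and 0.299% as higher. The groups did not overlap for 4 of the 9 genes: all cKO arrays lay below WT for Epha7 and Ephb1 and above WT for Epha3 and Efnb2. Over all probe sets, 0.822% had every cKO array below every WT array and 0.562% had every cKO array above. Of the 25428 probe sets, 12715 had a mean at or below the median of all values, against 0 of the 9 genes. The shares above are thus not those of similarly bright genes. With these dim probe sets left out, 160 of the rest passed as lower and 118 as higher, among them 2 and 2 of the 9 genes. That set is not matched in brightness either. By mean level the 9 genes stood between percentile 70.7 (Efna5) and 99.2 (Epha4) of all probe sets. The median change of the 9 genes was -0.00058, against -0.00077 over all probe sets, with values on both sides of 0. They ran from -0.56 (Epha7) to 0.48 (Epha3).

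**Figure D1:**
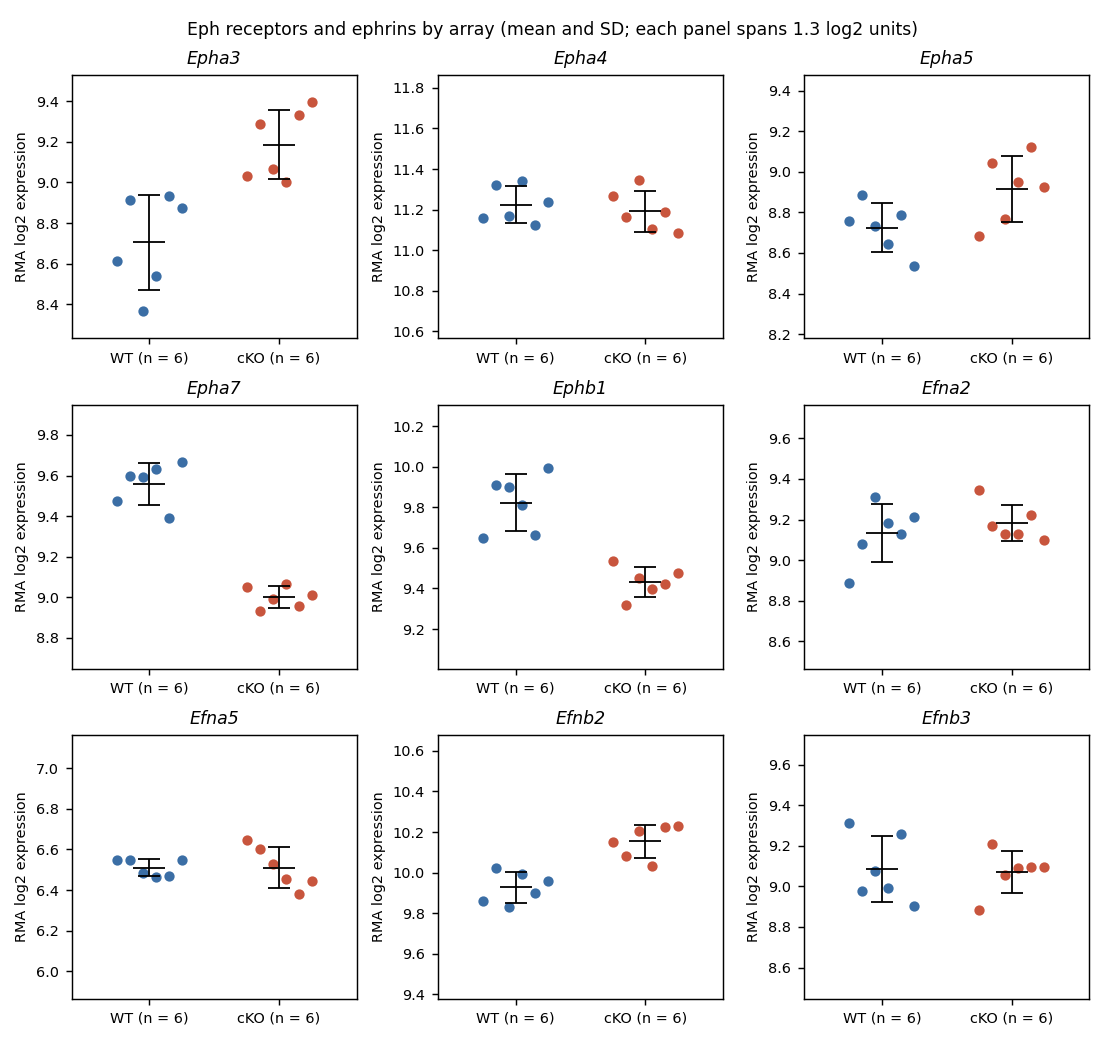
RMA log2 expression of the 9 genes on each of the 12 arrays, WT on the left and cKO on the right of each panel, with group mean and SD (n = 6). The points of the groups are separate for Epha3, Epha7, Ephb1 and Efnb2, while those of Epha4, Epha5, Efna2, Efna5 and Efnb3 overlap.

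Epha7, a receptor for ephrin-A ligands that acts in axon guidance and cell sorting in the forebrain, fell. Its WT arrays ran from 9.39 over a median of 9.60 to 9.67, and its cKO arrays from 8.93 over a median of 9.00 to 9.07. The highest cKO array was thus below the lowest WT array. The mean went from 9.56 ± 0.10 (SD, n = 6) to 9.00 ± 0.05 (SD, n = 6), which is 1.47-fold lower, or -0.56 ± 0.04 (SE) in log2 units (limma adjusted p = 0.000170). It ranked 7 among the 25428 probe sets by p. The call was kept in all 23 alternative settings, with changes between -0.59 and -0.52.

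Ephb1, a receptor for ephrin-B ligands with a known part in repelling axons at the optic chiasm, fell as well. WT arrays ran from 9.65 over a median of 9.86 to 9.99, and cKO arrays from 9.32 over a median of 9.44 to 9.54. The groups did not overlap, although the lowest WT and the highest cKO array were close. The mean went from 9.82 ± 0.14 (SD, n = 6) to 9.43 ± 0.07 (SD, n = 6), which is 1.31-fold lower, or -0.39 ± 0.06 (SE) in log2 units (limma adjusted p = 0.0125). The call was kept in 19 of 23 settings and without each single array. It was lost with the replicate number as a block (limma adjusted p = 0.0955), with the level of cortical or of vascular genes as a covariate (0.0615 and 0.262) and at a threshold of 0.01. The change stayed at -0.39 with the block and was -0.37 with either covariate. The adjusted p ranged from 0.00174 to 0.262 over all settings.

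Efnb2, the transmembrane ligand ephrin-B2, was the gene that rose. WT arrays ran from 9.83 over a median of 9.93 to 10.02, and cKO arrays from 10.03 over a median of 10.18 to 10.23. The highest WT array and the lowest cKO array nearly met. The mean went from 9.93 ± 0.08 (SD, n = 6) to 10.15 ± 0.08 (SD, n = 6), a change of 0.23 ± 0.04 (SE) or 1.17-fold higher (limma adjusted p = 0.0366). The direction held in all 23 settings, with changes between 0.21 and 0.25, but the call was kept in 8 of them. Among the 12 fits that each left out 1 array, it was kept without WT replicate 2 (limma adjusted p = 0.0318) or cKO replicate 4 (0.0235) and missed in the other 10, with an adjusted p of up to 0.0993. With the replicate block it was 0.196.

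Ephrin-B2 is also made by arterial endothelial cells. The 10 measured endothelial and pericyte genes had a mean level of 6.68 to 6.76 in WT and 6.73 to 6.79 in cKO, and 0 of the 10 passed in limma (by the unadjusted p, under 0.05, 2 were higher and 1 was lower). The change was positive for 7 and negative for 3 of them, from -0.062 to 0.13 with a median of 0.054. The list mean was 0.043 higher in cKO, and its part in the rise of Efnb2 was not tested beyond the covariate fit. With the vascular mean as a covariate the Efnb2 change was 0.23, as without it, but its limma adjusted p was 0.349. In that fit 19 probe sets passed in all, against 185 without the covariate. Of 11 radial glia and progenitor genes, 0 passed in limma and 4 were higher with an unadjusted p under 0.05. The change was positive for all 11, with a median of 0.11. Their mean level was 8.83 to 9.18 in WT and 9.01 to 9.23 in cKO, and the list mean was 0.13 higher in cKO. The part of this shift in the rise of Efnb2 was not tested.

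The stretches of 250 bases upstream of the annotated starts of the 3 genes that passed are shown for what lies in front of the genes that moved, as read from RefSeq on GRCm38.p6. The Epha7 stretch is chr4:28812881-28813130 on the plus strand. That of Ephb1 is chr9:102354694-102354943 and that of Efnb2 is chr8:8661243-8661492, both on the minus strand. Capitals mark the CCAAT box, a common promoter element, or its reverse complement ATTGG.
Epha7: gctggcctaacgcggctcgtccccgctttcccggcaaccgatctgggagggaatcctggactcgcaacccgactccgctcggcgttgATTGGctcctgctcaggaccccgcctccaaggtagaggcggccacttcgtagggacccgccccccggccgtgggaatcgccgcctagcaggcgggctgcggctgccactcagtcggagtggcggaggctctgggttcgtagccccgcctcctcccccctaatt
Ephb1: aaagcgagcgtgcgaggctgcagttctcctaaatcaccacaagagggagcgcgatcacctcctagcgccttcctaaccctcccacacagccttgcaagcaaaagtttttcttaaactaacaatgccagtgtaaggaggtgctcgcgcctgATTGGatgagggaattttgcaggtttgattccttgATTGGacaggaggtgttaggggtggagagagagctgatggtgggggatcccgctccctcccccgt
Efnb2: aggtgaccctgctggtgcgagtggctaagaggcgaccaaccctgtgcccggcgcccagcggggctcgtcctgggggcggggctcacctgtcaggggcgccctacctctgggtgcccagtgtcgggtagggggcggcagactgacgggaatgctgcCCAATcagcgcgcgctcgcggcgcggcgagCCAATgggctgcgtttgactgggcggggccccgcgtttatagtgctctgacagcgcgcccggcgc

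The forkhead letters TGTTTAC and TATTTAC were searched on both strands in the same 250-base window. They were found in front of 0 of the 20 family genes with a RefSeq promoter, and in 5.04% of 18380 promoters of genes on the array. CCAAT was chosen after the sequences were seen. It stood once in the Epha7 stretch, 163 bases before the start, 2 times in that of Ephb1 (100 and 65 bases) and 2 times in that of Efnb2 (95 and 65 bases). Epha4, whose level did not pass the test, carried it once as well, 88 bases before the start. In all, 10 of the 20 family genes had it, against 35.8% of the 18380 promoters. GC content was 69.2% for Epha7, 54.0% for Ephb1 and 72.0% for Efnb2, with a median of 55.2% over all promoters. Such letters describe the window only, and binding was not measured.

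Epha3, an A-class receptor, had the largest positive change of the 9 genes and did not pass. WT arrays ran from 8.37 over a median of 8.74 to 8.93, and cKO arrays from 9.00 over a median of 9.18 to 9.40. Every cKO array was above every WT array, yet the spread within each group was wide (SD 0.23 in WT and 0.17 in cKO, n = 6 each). The change was 0.48 ± 0.11 (SE), with a 95% interval of 0.24 to 0.72 (limma adjusted p = 0.0851). It passed when dim probe sets were left out (limma adjusted p = 0.0252), with a trended, robust prior (0.0298) and with the replicate block (0.0198), and missed in the other 20 settings, with an adjusted p of up to 0.480.

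**Figure D2:**
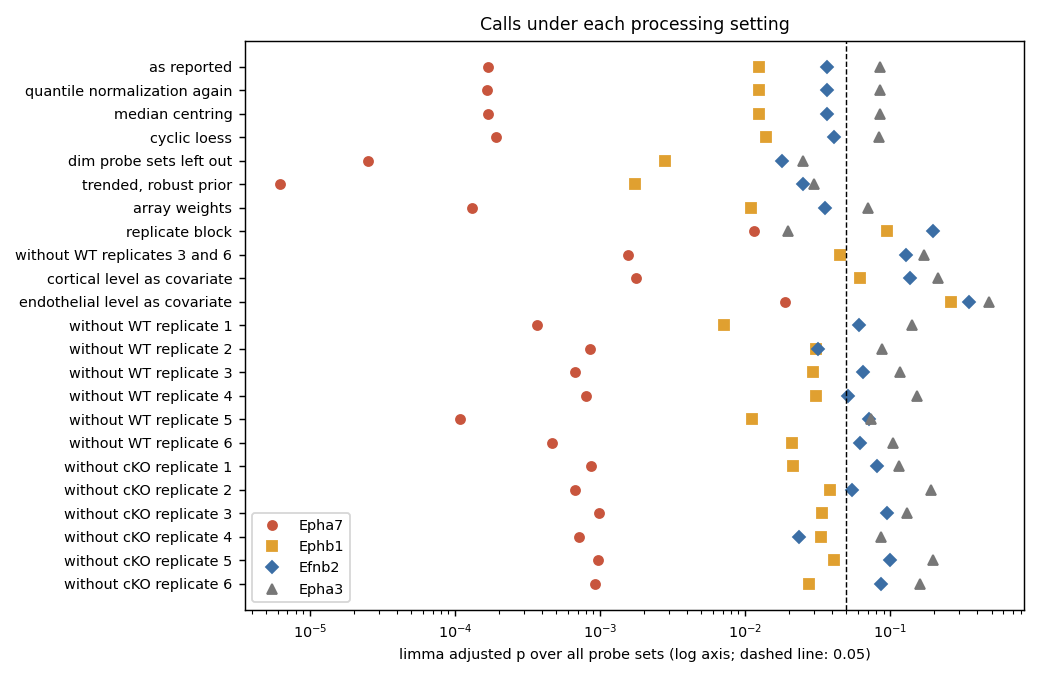
Limma adjusted p over all probe sets tested (log axis) for Epha7, Ephb1, Efnb2 and Epha3 under the reported setting and 22 alternatives, with the threshold of 0.05 as a dashed line. Epha7 stays left of the line throughout (at most 0.0189), Ephb1 crosses it under 3 of the alternatives shown, and Efnb2 and Epha3 lie on both sides.

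Epha5, another A-class receptor of forebrain axons, had a change of 0.19 ± 0.08 (SE) with a 95% interval of 0.021 to 0.36 (limma adjusted p = 0.385). Its arrays ran from 8.54 over 8.75 to 8.89 in WT and from 8.69 over 8.94 to 9.12 in cKO, and the groups overlapped. Epha4, which marks matrix neurons and can bind both ephrin classes, ran from 11.12 over 11.20 to 11.34 in WT and from 11.08 over 11.18 to 11.35 in cKO. Its change was -0.033 ± 0.052 (SE), with a 95% interval of -0.15 to 0.080 (limma adjusted p = 0.876), and its sign turned with the cortical covariate (0.022).

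The 8 measured cortical glutamatergic genes, markers of the tissue next to the striatum, had a mean level of 6.03 to 6.38 in WT and 6.03 to 6.70 in cKO, and 0 of the 8 passed in limma (2 higher at an unadjusted p under 0.05). The change was positive for all 8, and the list mean was 0.18 higher in cKO. In cKO the level was lowest on replicates 3 (6.03) and 1 (6.14), where Epha5 was lowest too (8.77 and 8.69). In WT the level was also lowest on replicates 3 (6.03) and 1 (6.13), whereas Epha5 was lowest on replicates 6 (8.54) and 4 (8.64). Epha3 had its ends on the same WT arrays as the cortical level, lowest on replicate 3 (8.37) and highest on replicate 5 (8.93). In cKO both were highest on replicate 6 (9.40 for Epha3), while Epha3 was lowest on replicate 4 (9.00). These orders were picked out after the values were seen and are given without a test. With the cortical level as a covariate the change went from 0.19 to 0.12 for Epha5 (limma adjusted p = 0.659) and from 0.48 to 0.35 for Epha3 (0.214), and was -0.54 for Epha7 (0.00177). Within the cortical list, Emx1 and Slc17a7 had means at or below the median of all values.

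The A-class receptors differed in how they changed. All 8 pairs of genes within a subclass were compared by the difference of their log2 values on each array, in a two-sided exact permutation test over 924 assignments whose smallest p is 0.00216. The log2 change of Epha7 lay 0.52 below that of Epha4, 0.75 below that of Epha5 and 1.04 below that of Epha3 (exact permutation adjusted p = 0.00577 for each, over the 8 pairs). For Epha7 and Epha3 the unadjusted p was fixed at its smallest value in advance, because their groups already lay apart in opposite directions. The change of Epha3 lay 0.51 above that of Epha4 (exact permutation adjusted p = 0.0130). The difference between Epha3 and Epha5, 0.29, missed the threshold (0.0519), as did that between Epha4 and Epha5, -0.22 (0.0989).

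Neither of the ephrin pairs compared in this way passed the threshold. Efnb3, an ephrin-B ligand of midline and forebrain axons, ran from 8.90 over 9.04 to 9.31 in WT and from 8.88 over 9.09 to 9.21 in cKO, with a change of -0.016 ± 0.074 (SE) and a 95% interval of -0.18 to 0.15 (limma adjusted p = 0.966). The changes of Efnb2 and Efnb3 differed by 0.24 (exact permutation adjusted p = 0.0750). Efna5, a ligand that maps axons along gradients, ran from 6.47 over 6.52 to 6.55 in WT and from 6.38 over 6.49 to 6.65 in cKO, and its change was -0.00058 ± 0.042 (SE), with a 95% interval of -0.092 to 0.091 (limma adjusted p = 0.998). Efna2 ran from 8.89 over 9.16 to 9.31 in WT and from 9.10 over 9.15 to 9.35 in cKO. Its change was 0.049 ± 0.065 (SE), with a 95% interval of -0.093 to 0.19 (limma adjusted p = 0.844). The changes of these ephrin-A genes differed by 0.049 (exact permutation adjusted p = 0.569). The sign of the change turned in 9 of 23 settings for Efna5, in 3 for Efnb3 and in 1 for Efna2.

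Among the other 12 family genes 0 passed in limma, while 2 were higher and 1 was lower by the unadjusted p (under 0.05), which marked 5.06% and 5.67% of all probe sets. Efnb1, the X-linked ephrin-B ligand, ran from 8.43 over 8.77 to 8.89 in WT and 5 of its 6 cKO arrays were above the highest WT array. Its change was 0.28 ± 0.09 (SE; limma adjusted p = 0.225). Epha6 had a change of 0.26 ± 0.10 (SE; limma adjusted p = 0.333), and Epha8 one of -0.14 ± 0.05 (SE; limma adjusted p = 0.259). Epha1, Epha2 and Efna1 had means at or below the median of all values, where RMA compresses differences. Changes of the remaining 6 genes (Epha10, Ephb3, Ephb4, Ephb6, Efna3 and Efna4) lay between -0.0057 and 0.034, and their adjusted p between 0.756 and 0.985. The sign of Epha10, Ephb4, Ephb6, Efna3 and Efna4 differed between settings.

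**Figure D3:**
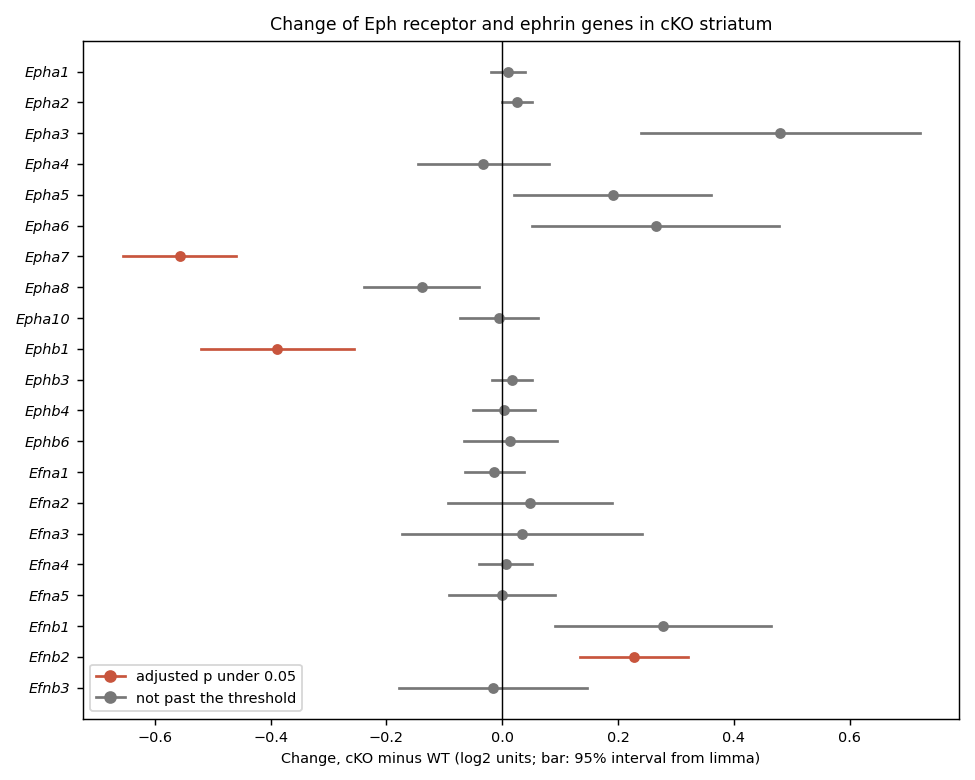
Change (cKO minus WT, log2 units) of the 21 measured family genes, in the order A-class receptors, B-class receptors, ephrin-A and ephrin-B, with 95% intervals from limma over 12 arrays. Epha7 and Ephb1 lie below 0 and Efnb2 above 0 past the threshold, and Epha3 has the widest interval, 0.24 to 0.72.

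Within the WT group, the arrays stood in the same order by Epha7 as by Foxp1. From lowest to highest, both genes put the WT replicates in the order 5, 1, 3, 2, 4 and 6. Foxp1 read 10.89, 11.01, 11.13, 11.17, 11.23 and 11.39 on them, and Epha7 read 9.39, 9.47, 9.59, 9.60, 9.63 and 9.67. Of the other 25427 probe sets, 46 (0.181%) had this order, and Epha7 was the 1 family gene among the 21 measured that did. With so few arrays, some unrelated probe sets share an order by chance, and the 46 were not set against that share. The shared order by itself thus does not set Epha7 apart. Ephb1 was also lowest on WT replicates 1 (9.65) and 5 (9.66) and highest on replicate 6 (9.99). These features were not particular to genes that fell. Replicates 1 and 5 were the lowest WT arrays for Epha4, Epha8 and Ephb3 too, none of which passed. Replicate 6 was the highest WT array for Efna5, Epha1, Epha2, Epha10, Ephb4 and Efna4, which did not pass either. Neither feature was seen in the other family genes. The striatal projection neuron genes had their lowest WT means on the same replicates, 1 (9.21) and 5 (9.24). In cKO the orders of Foxp1 and Epha7 differed. There both were lowest on replicate 2 (10.14 and 8.93) and highest on replicate 4 (10.36 and 9.07), but Epha7 put replicates 5, 3, 6 and 1 between them and Foxp1 put 6, 3, 1 and 5. The orders were noticed after the values were seen and are given without a test.

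**Figure D4:**
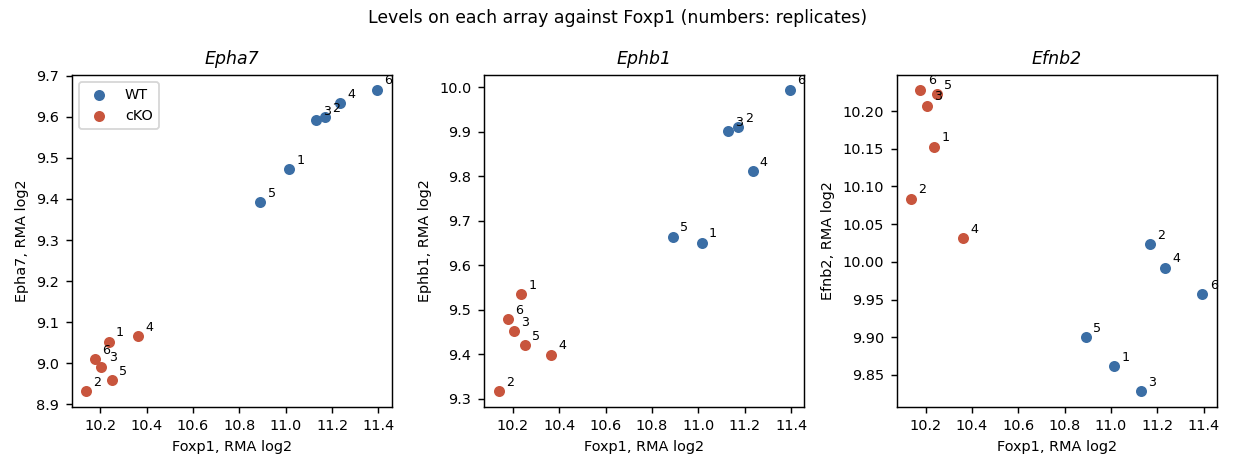
RMA log2 expression of Epha7, Ephb1 and Efnb2 (vertical axes) against Foxp1 (horizontal axes) on the 12 arrays, with replicate numbers beside the points. In WT the Epha7 points climb with Foxp1 from replicate 5 (10.89 for Foxp1, 9.39 for Epha7) to replicate 6 (11.39 and 9.67), and the cKO points form a separate group at Foxp1 values of 10.14 to 10.36.

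The genes most like each of these 3 over the 12 arrays were found from profiles centred on their own mean, by root mean square difference in log2 units. For Epha7, whose own profile had a root mean square of 0.289, they were Chst15 (0.0896), Ikzf1 (0.0914) and Ano3 (0.0919), and with the sign turned Sez6 (0.0890), Peg10 (0.110) and Cdh4 (0.117). For Ephb1, with 0.220, they were Fblim1 (0.0570), Gucy1a1 (0.0647) and Tpbg (0.0797), and with the sign turned Trpm3 (0.0752), Cdh4 (0.0891) and Sez6 (0.0900). Sez6 (change 0.45) and Cdh4 (0.43) thus came up with the sign turned for both receptors. The profiles span both groups, so a step of like size between WT and cKO brings genes close by itself. Ikzf1 is also on the list of striatal projection neuron markers. For Efnb2, with 0.135, the nearest were Snora69 (0.0657), Cntln (0.0662) and Thsd7a (0.0666), and with the sign turned Cdh6 (0.0407), Rims3 (0.0588) and Slc7a14 (0.0593).

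Of 38 measured partners of Eph and ephrin signalling, such as adaptors, exchange factors and kinases, 1 passed as higher and 0 as lower, and the median change was -0.0013. Chn2, which encodes a chimaerin that lowers Rac activity, rose by 0.16 ± 0.03 (SE), from 9.42 ± 0.06 (SD, n = 6) to 9.58 ± 0.04 (SD, n = 6; limma adjusted p = 0.0216). Its arrays ran from 9.33 over 9.43 to 9.49 in WT and from 9.55 over 9.57 to 9.64 in cKO, without overlap. The call was kept in 15 of 23 settings, was lost without WT replicate 2 (limma adjusted p = 0.0527) or cKO replicate 3, 5 or 6 (0.0507, 0.0582 and 0.0561), and had a limma adjusted p of 0.0718 with the replicate block and of up to 0.199 over all settings.

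Chn1, Ngef, Fyn, Src, Rac1 and Rhoa were picked out once their values were known. Chn1, which encodes a chimaerin downstream of Epha4, had a change of -0.17 ± 0.04 (SE; limma adjusted p = 0.0538). Ngef, which encodes the RhoA exchange factor ephexin1 that binds EphA receptors, had a change of -0.38 ± 0.09 (SE; limma adjusted p = 0.0786), with 5 of 6 cKO arrays below the lowest WT array. At an unadjusted p under 0.05 in limma, 6 of the 38 partners were higher and 2 lower, against 5.06% and 5.67% of all probe sets. Changes of Fyn (-0.028), Src (-0.076), Rac1 (-0.034) and Rhoa (0.046), kinases and GTPases that many other receptors use too, did not pass (limma adjusted p = 0.850, 0.660, 0.777 and 0.679).

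**Figure D5:**
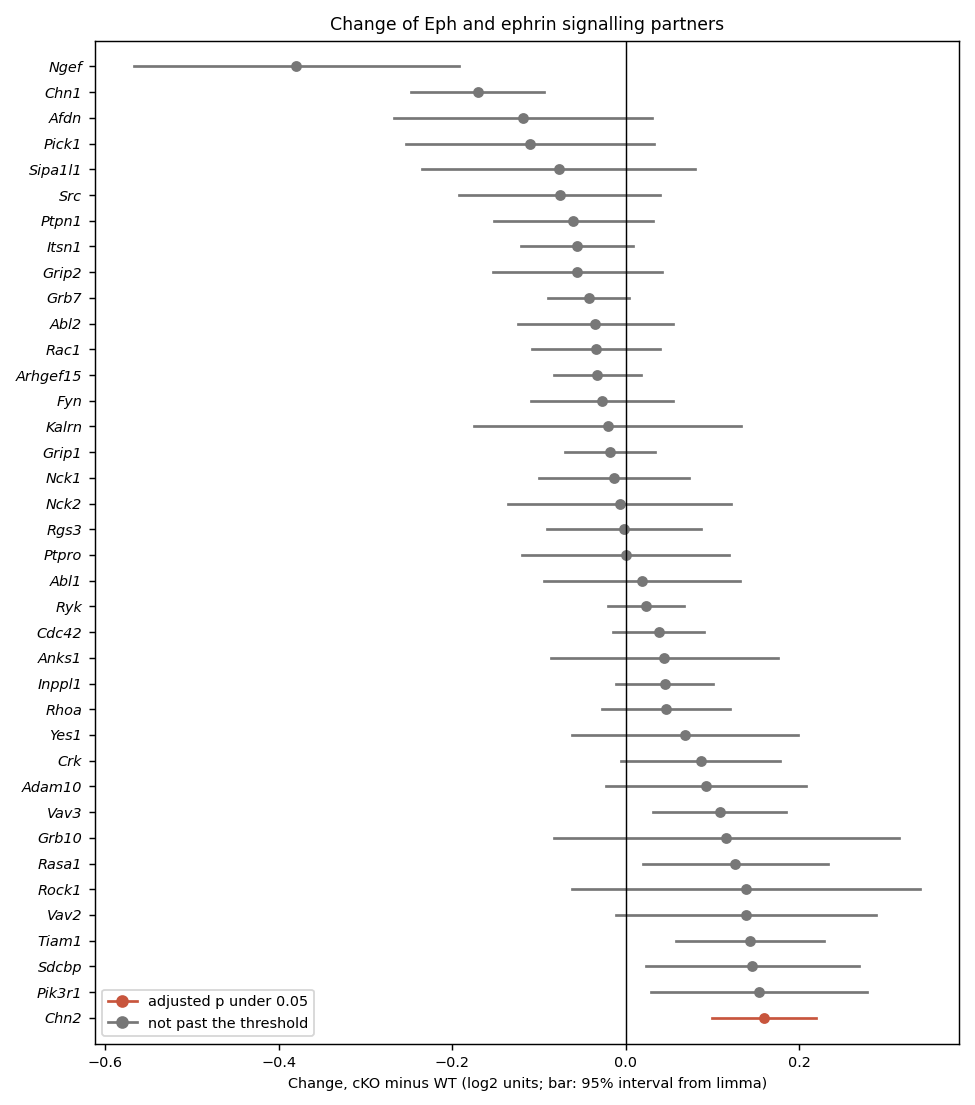
Change (cKO minus WT, log2 units) of the 38 measured signalling partners with 95% intervals from limma over 12 arrays, ordered by size. Chn2 at 0.16 is the 1 gene past the threshold, and Ngef at -0.38, which did not pass, has the most negative change, with an interval of -0.57 to -0.19.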

How the data were processed

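RNA of 12 striatal samples (6 WT, 6 cKO; whether any pooled embryos is not given in the sources used here) was measured on 1-colour arrays. RMA was run by the authors, as the submitters' processing notes name it without a version, and the values they deposited are log2 expression. RMA corrects background, brings arrays to a shared distribution and summarises probes, so a shift common to all genes is not visible and changes of dim genes are compressed. Array model and build are not given in the sources used here. Symbols came from the platform annotation, updated by gene identifier (RefSeq, GRCm38.p6). They were given to 24674 of 25428 probe sets, none with several symbols, and the other 754 stayed unnamed. One listed gene is not reported here.

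The cKO arrays were set against the WT arrays by limma (version 3.58.1, lmFit and eBayes, two-sided, no covariates; R 4.3.3) over all probe sets and arrays, with Benjamini-Hochberg adjustment and a threshold of 0.05. The test was tried on simulated data before use. Genes and lists were chosen with earlier results of these data known. Named are all measured family genes, Foxp1, partners past the threshold, and the 3 most like profiles (and 3 with the sign turned) per gene that passed, leaving out predicted genes. Other partners, and the markers Emx1 and Slc17a7, were named after their values were seen. The titles share replicate numbers between groups, and no label says that they pair animals. Alternatives were other scalings (quantile, median, cyclic loess), leaving out dim probe sets or arrays, a trended robust prior, array weights, a replicate block, cortical or vascular covariates and a threshold of 0.01. The deposited arrays already shared a distribution, so quantile and median scaling could move values little. The threshold of 0.01 used the main fit again, so it could not change a direction. The number of arrays limits the precision. The exact permutation tests of pairs were adjusted over the 8 pairs, and limma's p-values over all probe sets.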

Additional observations from a re-analysis of the deposited data

Results flagged for a closer look

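Single arrays were checked in 50 groups of 6 values (25 genes in WT and in cKO), and 2 stood apart from the others of their group by Dixon's criterion for 6 values. Chance alone would mark about 1 group in 20. Ephb3 read 5.84 on cKO replicate 5, with the next array at 5.89, a gap of 0.672 of the group's range. Ephb4, a receptor of venous endothelium, read 5.82 on WT replicate 4, with the next array at 5.89, a gap of 0.676. Both genes lay close to the median of all values (5.71), and neither passed the comparison of the groups in limma.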

How the results depend on the processing

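Foxp1 and Epha7 kept direction and call in all 23 alternatives. Of the 9 genes, 1 instead of 2 was called lower with the replicate block, with the cortical or the vascular covariate and at a threshold of 0.01. In each of these fits Epha7 kept its call and Ephb1 did not. Called higher were 2 instead of 1 without dim probe sets and with the trended, robust prior (Efnb2 and Epha3), and 0 without WT replicates 3 and 6, with either covariate and at 0.01. With the replicate block Epha3 was the 1 called higher. Leaving out single arrays gave 0 to 1 higher and 2 to 2 lower. In the whole family 1 gene was called with either covariate and at 0.01, against 3. Over all probe sets, 185 calls became 278 without dim probe sets, 64 with the replicate block, 107 and 19 with the cortical and vascular covariates, 61 at 0.01, and 106 to 227 without single arrays. The first tested fewer probe sets and the setting of 0.01 is stricter by construction; for the others the cause was not tested.

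The subclass pairs that had passed kept the size of their differences under the replicate block but missed the threshold. The exact sign-flip permutation adjusted p was 0.050 for Epha3 minus Epha4 (0.513), Epha3 minus Epha7 (1.04), Epha4 minus Epha7 (0.525) and Epha5 minus Epha7 (0.748). The smallest unadjusted p that 6 pairs of arrays allow in that test is 0.0312. Without single arrays, Epha3 minus Epha5 ran from 0.219 to 0.360, Epha4 minus Epha5 from -0.284 to -0.181 and Efnb2 minus Efnb3 from 0.185 to 0.286, passing in 3, 2 and 1 of 12 fits. Deviations of same-numbered arrays correlated between -0.221 and 0.155, and 0 of 6 WT arrays correlated best with their own number. The number of arrays and the signal of dim genes such as Epha1, Epha2 and Efna1 limit what can be seen.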
